A study of Mus musculus with 38 samples.

Results

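The 10 genes of mitochondrial shape were followed here in the left ventricle of mice, chosen by name from the 29564 genes of the deposited tables. They are 3 fusion genes (Mfn1, Mfn2 and Opa1), 2 fission genes (Dnm1l and Fis1) and 5 genes of the cristae (Immt, Chchd3, Chchd6, Apoo and Apool). The 38 libraries, 1 per mouse, were polyA-selected RNA-seq of wild-type C57BL6 hearts in 4 groups. The 8 non-failing mice were controls without disease, and the 11 HFpEF+TYA-018, 11 HFpEF+SGLT2i and 8 HFpEF+Veh mice were all given a high-fat diet with L-NAME, an inhibitor of nitric oxide synthase, to model heart failure with preserved ejection fraction (HFpEF). HFpEF+Veh mice received vehicle, HFpEF+TYA-018 mice the HDAC6 inhibitor TYA-018, and HFpEF+SGLT2i mice empagliflozin, an inhibitor of the kidney glucose transporter SGLT2. The model joins obesity and high blood pressure and does not separate their effects. The labels give the sex as female, whereas the methods of the study describe male mice.

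Mitochondria of the heart are joined and divided by large GTPases. Mitofusins, the products of Mfn1 and Mfn2, fuse the outer membrane, and the product of Opa1 fuses the inner membrane and holds cristae closed. Dnm1l encodes the dynamin that constricts and divides the organelle, and Fis1 encodes a small outer membrane protein that serves as 1 of its docking sites. Cristae, the folds that carry the respiratory chain, open through narrow junctions built by the MICOS complex, of which mitofilin (Immt) is the core, Chchd3 and Chchd6 are its coiled-coil-helix partners, and Apoo and Apool are apolipoprotein-like subunits that bind cardiolipin. In cardiomyocytes these proteins are known for keeping the densely packed mitochondria between the myofibrils in shape.

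All 10 genes are protein coding, and their positions are given on GRCm38. The fusion genes lie on chromosome 3 (Mfn1, 32529465 to 32579239, plus strand), chromosome 4 (Mfn2, 147873599 to 147904704, minus strand) and chromosome 16 (Opa1, 29579334 to 29654884, plus strand). The fission genes lie on chromosome 16 (Dnm1l, 16312230 to 16358959, minus strand) and chromosome 5 (Fis1, 136953275 to 136966234, plus strand). Of the cristae genes, Immt (71831331 to 71877388, plus strand), Chchd3 (32790976 to 33060260, minus strand) and Chchd6 (89383146 to 89595652, minus strand) share chromosome 6, and Apoo (94367117 to 94417093, plus strand) and Apool (112311334 to 112372755, plus strand) share chromosome X.

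Promoters are shown for 4 genes whose levels moved together, or in the opposite sense, from library to library in the data described next: Immt and Opa1, which rose and fell together, Chchd3, and Fis1, which went the other way. Each is 250 bases before to 50 after a transcription start, from RefSeq on GRCm38.p6, written 5′ to 3′ on the strand of the gene, with capitals marking a match to 1 of 4 motifs. The motifs were searched on both strands as the exact letters TCAAGGTCA (estrogen-related receptor element), GCATGCGC (the core bound by nuclear respiratory factor 1), AAGATGGCG (YY1) and CACGTG (E-box).
Immt, chr6:71831070-71831369, plus strand: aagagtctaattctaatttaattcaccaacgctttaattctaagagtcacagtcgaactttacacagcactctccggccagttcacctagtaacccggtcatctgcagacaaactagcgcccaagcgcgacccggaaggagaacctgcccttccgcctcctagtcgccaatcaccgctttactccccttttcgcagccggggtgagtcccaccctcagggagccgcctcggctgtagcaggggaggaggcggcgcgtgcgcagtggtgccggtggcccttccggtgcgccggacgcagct
Opa1, chr16:29579084-29579383, plus strand: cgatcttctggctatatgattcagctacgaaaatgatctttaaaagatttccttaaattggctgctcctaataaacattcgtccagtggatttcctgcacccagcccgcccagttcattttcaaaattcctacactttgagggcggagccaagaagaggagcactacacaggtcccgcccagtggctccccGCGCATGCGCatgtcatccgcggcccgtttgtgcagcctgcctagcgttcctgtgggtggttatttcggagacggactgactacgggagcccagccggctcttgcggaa
Chchd3, chr6:33060211-33060510, minus strand: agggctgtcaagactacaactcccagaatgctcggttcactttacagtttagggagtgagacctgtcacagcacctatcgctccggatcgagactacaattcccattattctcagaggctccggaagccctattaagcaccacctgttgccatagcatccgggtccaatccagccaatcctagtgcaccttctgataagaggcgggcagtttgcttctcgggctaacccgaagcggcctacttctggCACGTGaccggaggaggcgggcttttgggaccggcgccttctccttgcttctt
Fis1, chr5:136953025-136953324, plus strand: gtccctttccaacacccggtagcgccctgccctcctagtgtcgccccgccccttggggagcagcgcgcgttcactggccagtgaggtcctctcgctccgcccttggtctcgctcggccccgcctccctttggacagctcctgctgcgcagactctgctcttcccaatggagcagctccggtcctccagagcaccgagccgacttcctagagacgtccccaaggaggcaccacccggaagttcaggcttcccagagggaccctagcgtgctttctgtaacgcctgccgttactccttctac
The capitals in Opa1 hold 2 overlapping matches of the nuclear respiratory factor 1 core, 1 on each strand, and those in Chchd3 hold the E-box, which overlaps the transcription start. Of the 15 RefSeq promoters of the 10 genes, the core was in 1 and the E-box in 1, against 2.71% and 7.15% of all 32851 promoters in the table. The estrogen-related receptor element and the YY1 motif were in 0 of the 15 and in 0.423% and 1.40% of all promoters. A match is a run of letters and not a measured site, and the absence of one says only that these letters are not in these windows.

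Depth ranged from 21.5 M to 59.3 M estimated counts per library (M, counts in units of 1000000), with group means from 31.7 M in HFpEF+TYA-018 to 35.0 M in HFpEF+SGLT2i. Genes encoded in the mitochondrial DNA took 28.5% to 39.5% of the counts of a library. The 7 cardiomyocyte markers were at 15303 summed TPM (transcripts scaled to a total of 1000000 per library) or more in every library. Their sum averaged 25968 ± 3061 TPM in non-failing (n = 8, SD) and 22102 ± 1313 TPM in HFpEF+Veh (n = 8, SD), while that of 5 fibroblast markers averaged 227 ± 35.5 and 321 ± 109 TPM. With TYA-018 and empagliflozin (n = 11 each, SD), the cardiomyocyte sum averaged 22879 ± 1990.3 and 21424 ± 2628 TPM and the fibroblast sum 242.4 ± 39.5 and 242.7 ± 27.2 TPM. The sum of 4 endothelial markers averaged 152 ± 18.8 TPM in non-failing, 171 ± 22.1 in HFpEF+Veh, 141 ± 21.2 with TYA-018 and 161 ± 36.2 with empagliflozin. The sum of 4 macrophage markers averaged 55.0 ± 9.13 TPM in non-failing and 70.7 ± 15.2 TPM in HFpEF+Veh, and that of 3 erythrocyte markers 3209 ± 807 and 8071 ± 7209 TPM, with 6820 ± 3420 TPM in HFpEF+TYA-018 and 4122 ± 1707 TPM in HFpEF+SGLT2i. Of 3 brown adipocyte markers, Cidea averaged 15.0 ± 1.87 TPM in non-failing and 26.05 ± 3.35 TPM in HFpEF+Veh, while Ucp1 and Elovl3 had medians of 0. The part of these markers in the results was not tested. In bulk tissue such as this, fewer cells of a type and less RNA per cell cannot be told apart. Library V2523 of HFpEF+Veh held 783 TPM of 5 hepatocyte markers and V2532 of the same group 36.1 TPM of 4 fast skeletal muscle markers, against medians of 1.76 and 0.740 TPM in that group, so values of the 10 genes against HFpEF+Veh are also given without both. All 8 non-failing libraries held the hepatocyte markers, at 11.2 to 192 TPM (median 30.2), against at most 1.62 TPM with TYA-018 and 4.70 TPM with empagliflozin.

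TPM is scaled by transcript length and so compares genes with each other. Over all 38 libraries, Chchd3 (109.8 ± 22.4 TPM) and Fis1 (108 ± 11.5 TPM) were the most abundant of the 10 genes (n = 38, SD). Apoo (74.5 ± 19.2 TPM), Mfn2 (72.6 ± 14.6 TPM) and Mfn1 (54.2 ± 7.69 TPM) followed. Immt (30.4 ± 17.6 TPM) and Apool (21.7 ± 3.94 TPM) came next, then Opa1 (11.0 ± 3.25 TPM), Dnm1l (10.5 ± 2.68 TPM) and Chchd6 (6.0 ± 0.699 TPM). Neighbours within their SD of each other were Chchd3 and Fis1, Apoo and Mfn2, Immt and Apool, and Opa1 and Dnm1l. Estimated counts were not whole numbers in 38 of 38 libraries for Dnm1l, 36 of 38 for Immt and 8 of 38 for Chchd6 (tolerance 0.01), so part of their reads was shared out between genes and their levels are uncertain to that extent. The other 7 genes had whole counts in every library.

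**Figure D1:**
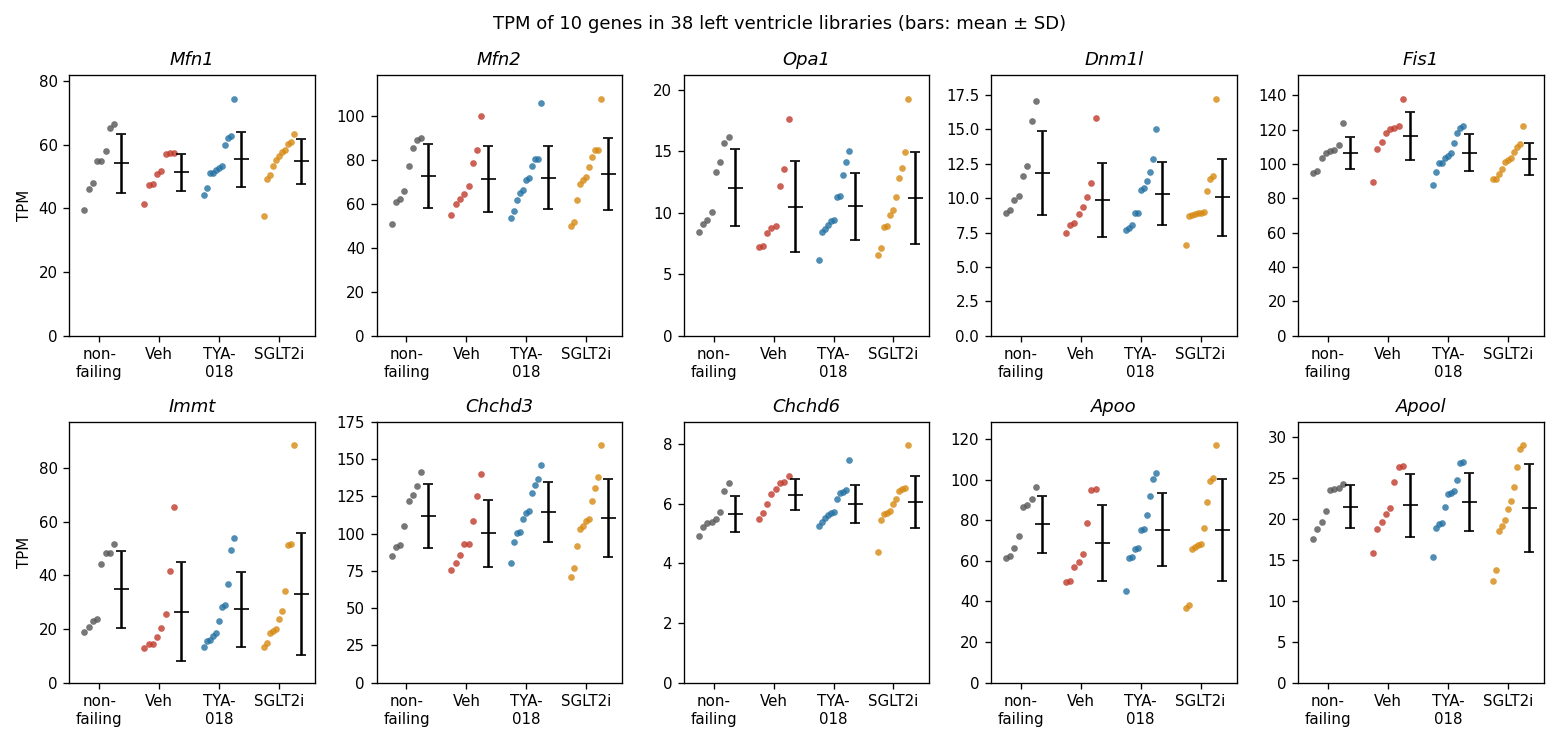
TPM of each of the 10 genes (y axis, from 0) in the 4 groups (x axis); each point is 1 mouse, in rising order within a group, and the bar is the mean ± SD. The groups overlap for all 10 genes, and Immt has the widest spread relative to its level, from 12.8 to 88.6 TPM.

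The first comparison asks whether the disease model changed these genes. HFpEF+Veh differed from non-failing hearts in 0 of the 10 at an adjusted p under 0.05 (edgeR quasi-likelihood test, Benjamini-Hochberg over 13765 genes), against 3.15% of all genes tested. It differed in 0 at an unadjusted p under 0.05, against 15.9% of all genes. DESeq2 and limma on log2(TPM + 1) also called 0, with 1 and 0 at an unadjusted p under 0.05. The fitted values of 8 genes lay below 0 and those of Fis1 and Chchd6 above, with a median log2 fold change of -0.19 against 0.01 over all genes. With library length as a covariate, an alternative described further on, Fis1 was below 0 too. In the edgeR fit all 7 cardiomyocyte markers were below 0 (median -0.34), and 3 were called. These were Tnnt2 (-0.43, adjusted p 0.00459), Myl2 (-0.37, adjusted p 0.0121) and Tnni3 (-0.34, adjusted p 0.0129). Of 5 fibroblast markers 4 were above 0 and 2 were called, Lum (0.86, adjusted p 0.00190) and Pdgfra (0.33, adjusted p 0.0123). On the TPM scale, the means of the cardiomyocyte markers Myh6 (581 against 551) and Actc1 (3031 against 2940) were higher in HFpEF+Veh than in non-failing hearts. The direction of both thus turned with the scale. The part of these markers in the values of the 10 genes was not tested.

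Among the fusion genes, Mfn1 had a lowest, median and highest TPM of 39.7, 54.9 and 66.6 in non-failing hearts and 41.5, 51.3 and 57.6 in HFpEF+Veh. Mfn2 had 51.2, 71.5 and 89.9 TPM in non-failing hearts and 54.9, 66.4 and 100.1 in HFpEF+Veh. Opa1 had 8.40, 11.7 and 16.2 TPM in non-failing hearts and 7.24, 8.85 and 17.7 in HFpEF+Veh. In each the ranges overlapped, and for Mfn2 and Opa1 the highest vehicle library, V2532, stood above every control. The log2 fold change was -0.13 for Mfn1 (adjusted p 0.473, SE 0.08), -0.10 for Mfn2 (adjusted p 0.744, SE 0.13) and -0.29 for Opa1 (adjusted p 0.444, SE 0.18).

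For the fission dynamin Dnm1l, the lowest, median and highest TPM were 8.91, 10.9 and 17.1 in non-failing hearts and 7.45, 9.12 and 15.9 in HFpEF+Veh. Of the 8 vehicle libraries, 7 lay at or below 11.1 TPM and V2532 alone at 15.9. Its log2 fold change of -0.33 (adjusted p 0.324, SE 0.16) had the lowest adjusted p of the 10 genes. Fis1, the docking protein, had 94.6, 107 and 124 TPM in non-failing hearts and 89.4, 119 and 138 in HFpEF+Veh, where V2532 was the lowest library. Its log2 fold change was 0.03 (adjusted p 0.901, SE 0.09).

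The cristae genes varied more than they differed. Immt, the core of MICOS, had 18.8, 33.9 and 51.6 TPM in non-failing hearts and 12.8, 18.7 and 65.7 in HFpEF+Veh. Control libraries fell into 4 between 18.8 and 23.6 TPM and 4 between 44.2 and 51.6 TPM, while 6 of the 8 vehicle libraries lay between 12.8 and 25.7 TPM, with V2523 at 41.5 and V2532 at 65.7. The log2 fold change was -0.49 with a 95% interval from -1.23 to 0.25 (adjusted p 0.547, SE 0.37). Without V2523 it was -0.61 (adjusted p 0.398, SE 0.38), without V2532 -0.84 (adjusted p 0.185, SE 0.36), and without both, an alternative chosen after the data were seen, -1.09 (adjusted p 0.0644, SE 0.37). Chchd3 had 85.1, 113 and 142 TPM in non-failing hearts and 75.6, 93.1 and 140.0 in HFpEF+Veh, with V2523 the highest, and a log2 fold change of -0.25 (adjusted p 0.375, SE 0.14). Apoo had 61.3, 79.5 and 96.5 TPM in non-failing hearts and 49.5, 61.5 and 95.5 in HFpEF+Veh, and its log2 fold change was -0.26 (adjusted p 0.456, SE 0.16). For Apoo, 5 of the 8 vehicle libraries were below 64 TPM, against 2 of the 8 controls. Apool and Chchd6 had log2 fold changes of -0.08 and 0.03 (adjusted p 0.797 and 0.890), with Apool between 15.8 and 26.5 TPM and Chchd6 between 4.91 and 6.95 TPM across both groups.

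Without V2523 and V2532, the log2 fold change of HFpEF+Veh against non-failing was -0.16 for Mfn1, -0.22 for Mfn2, -0.50 for Opa1, -0.49 for Dnm1l and 0.11 for Fis1. For the cristae genes other than Immt it was -0.39 for Chchd3, 0.04 for Chchd6, -0.39 for Apoo and -0.15 for Apool. The sign of each gene was kept and 0 were called. With 1 library left out Mfn2 ran from -0.19 (without V2532) to -0.05 (without V2501).

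The second comparison asks whether TYA-018 changed the genes in diseased hearts. All 10 fitted log2 fold changes of HFpEF+TYA-018 against HFpEF+Veh were above 0 (median 0.16, against -0.01 over all genes), except that scaling to library size alone, which moved the median of all genes to -0.14, put Mfn2, Fis1 and Chchd6 below 0, limma on TPM put Fis1 and Chchd6 there, and leaving out V2532 or adding library length as a covariate put Fis1 there. edgeR called 0 of the 10, against 1.93% of all genes, with 2 at an unadjusted p under 0.05, against 17.5% of all genes. DESeq2 also called 0 with 2, and limma on log2(TPM + 1) 0 with 0. In the same comparison and fit, 6 of 7 cardiomyocyte markers were above 0 and 4 had an unadjusted p under 0.05, such as Tnni3 at 0.22 (adjusted p 0.126) and Actc1 at 0.38 (adjusted p 0.241). All 4 endothelial markers were below 0, with Kdr at -0.26 (adjusted p 0.226), and so were all 5 fibroblast markers, with Lum at -0.32 (adjusted p 0.268), and in each list 2 had an unadjusted p under 0.05. None of these markers passed an adjusted p under 0.05, and their part in the values of the 10 genes was not tested.

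Chchd3 had the lowest adjusted p. Its lowest, median and highest TPM were 80.5, 114 and 146 with TYA-018, against 75.6, 93.1 and 140.0 with vehicle. Of the 11 treated libraries, 10 lay above the vehicle mean of log2 CPM (counts per 1000000 after TMM scaling between libraries). Of the vehicle libraries 5 of 8 were under 94 TPM, and of the treated ones 1 of 11, so the groups overlapped through V2550 below and V2521, V2523 and V2532 above. The log2 fold change was 0.37 with a 95% interval from 0.11 to 0.63 (adjusted p 0.118, SE 0.13). It was 0.45 without V2523 (adjusted p 0.0638), 0.41 without V2532 (adjusted p 0.103) and 0.51 without both (adjusted p 0.0580).

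Mfn1 had 44.3, 52.7 and 74.6 TPM with TYA-018 and 41.5, 51.3 and 57.6 with vehicle. There were 4 treated libraries above the highest vehicle library, and 10 of 11 lay above the vehicle mean of log2 CPM. The log2 fold change was 0.16 (adjusted p 0.260, SE 0.08). Apoo had 45.1, 75.3 and 103 TPM with TYA-018 against 49.5, 61.5 and 95.5 with vehicle, and a log2 fold change of 0.30 (adjusted p 0.296, SE 0.15). The remaining values were 0.20 for Apool (adjusted p 0.358, SE 0.12), 0.17 for Opa1 (adjusted p 0.631, SE 0.17), 0.13 for Mfn2 (adjusted p 0.609, SE 0.12), 0.15 for Dnm1l (adjusted p 0.634, SE 0.15), 0.12 for Chchd6 (adjusted p 0.446, SE 0.08) and 0.04 for Fis1 (adjusted p 0.835, SE 0.08). Immt had 13.1, 22.8 and 54.0 TPM with TYA-018, and its log2 fold change of 0.19 had an interval from -0.50 to 0.88 (adjusted p 0.809, SE 0.34). It ranged from 0.07 without V2543, the highest treated library, to 0.54 without V2532. Without V2523 and V2532 the log2 fold changes were 0.20 for Mfn1, 0.24 for Mfn2, 0.38 for Opa1, 0.32 for Dnm1l and -0.04 for Fis1, and among the cristae genes 0.79 for Immt, 0.12 for Chchd6, 0.44 for Apoo and 0.28 for Apool, with 0 called. With 1 library left out Opa1 ran from 0.11 (without V2530) to 0.30 (without V2532).

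The third comparison asks the same of empagliflozin. Of the 10 log2 fold changes of HFpEF+SGLT2i against HFpEF+Veh, 9 were above 0 and that of Fis1 below, with a median of 0.11 against 0.01 over all genes; scaling to library size alone and limma on TPM put Chchd6 and Apool below 0 as well, the length covariate Mfn2, Opa1, Dnm1l and Apool, and leaving out V2562 Dnm1l. edgeR called 0 of the 10, against 0.85% of all genes (117 genes, and 2 without V2523). At an unadjusted p under 0.05 there were 0 of the 10, against 10.05% of all genes, and DESeq2 and limma called 0 with 0. Immt had a lowest, median and highest TPM of 13.3, 23.6 and 88.6 with empagliflozin. The libraries V2562, V2563 and V2564 lay above 50 TPM and the other 8 between 13.3 and 34.3 TPM. The log2 fold change of Immt was 0.41 with an interval from -0.28 to 1.1 (adjusted p 0.730, SE 0.34), and it was 0.16 without V2562 and 0.76 without V2532. Chchd3, at 70.6, 108 and 159 TPM, had 0.23 (adjusted p 0.546, SE 0.13), and Fis1, at 91.3, 102 and 122 TPM, had -0.12 (adjusted p 0.649, SE 0.08). The other 7 lay between 0.05 and 0.19, and without V2523 Chchd3 had 0.31 (adjusted p 0.377, SE 0.13). Without V2523 and V2532 the values were 0.15 for Mfn1, 0.22 for Mfn2, 0.37 for Opa1, 0.23 for Dnm1l and -0.20 for Fis1, and 1.003 for Immt, 0.37 for Chchd3, 0.04 for Chchd6, 0.33 for Apoo and 0.12 for Apool, with 0 called.

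The treatments were then compared with each other. Between HFpEF+TYA-018 and HFpEF+SGLT2i, edgeR called 0 of the 10 genes and 0% of all genes, with 1 member and 13.2% of all genes at an unadjusted p under 0.05. DESeq2 called 0 members with 1 at an unadjusted p under 0.05 and limma 0 with 0, and DESeq2 called 193 of all genes. Fis1 had 87.6, 105 and 122 TPM with TYA-018 and 91.3, 102 and 122 with empagliflozin, ranges that overlapped, and a log2 fold change on the CPM scale of 0.16 with an interval from 0.01 to 0.31 (adjusted p 0.337, SE 0.07). Immt had -0.22 (interval -0.85 to 0.41), Apool 0.15 (interval -0.06 to 0.37) and Chchd3 0.13 (interval -0.10 to 0.37). Mfn2 and Opa1 were at 0.01 and 0.00, with intervals from -0.21 to 0.23 and from -0.30 to 0.31. These intervals hold for this fit only, and with library length as a covariate Immt had 0.52, outside its interval.

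Against non-failing hearts, 0 of the 10 genes were called for HFpEF+TYA-018 (7.39% of all genes) and 0 for HFpEF+SGLT2i (6.45% of all genes). In either, 0 were at an unadjusted p under 0.05, against 22.0% and 19.6% of all genes, and DESeq2 and limma called 0. With TYA-018, 7 of the 10 values were above 0 (median 0.04; with library size alone Mfn1, Mfn2 and Apoo were below 0, limma on TPM put Mfn2 and Apoo there and the length offset Apoo, and with the covariate Immt and Opa1 were above 0, at 0.08 and 0.07, and Fis1 below, at -0.04; leaving out 1 library also put Mfn2 or Apoo below 0), from -0.30 for Immt to 0.16 for Chchd6 (adjusted p 0.662 and 0.254). With empagliflozin, 8 were below 0 (median -0.05; values of 6 genes near 0 changed sign with other libraries or settings), from -0.25 for Dnm1l to 0.09 for Chchd6 (adjusted p 0.370 and 0.611). They share the non-failing libraries with each other and the treated libraries with the comparisons against vehicle, so they are not independent of them.

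**Figure D2:**
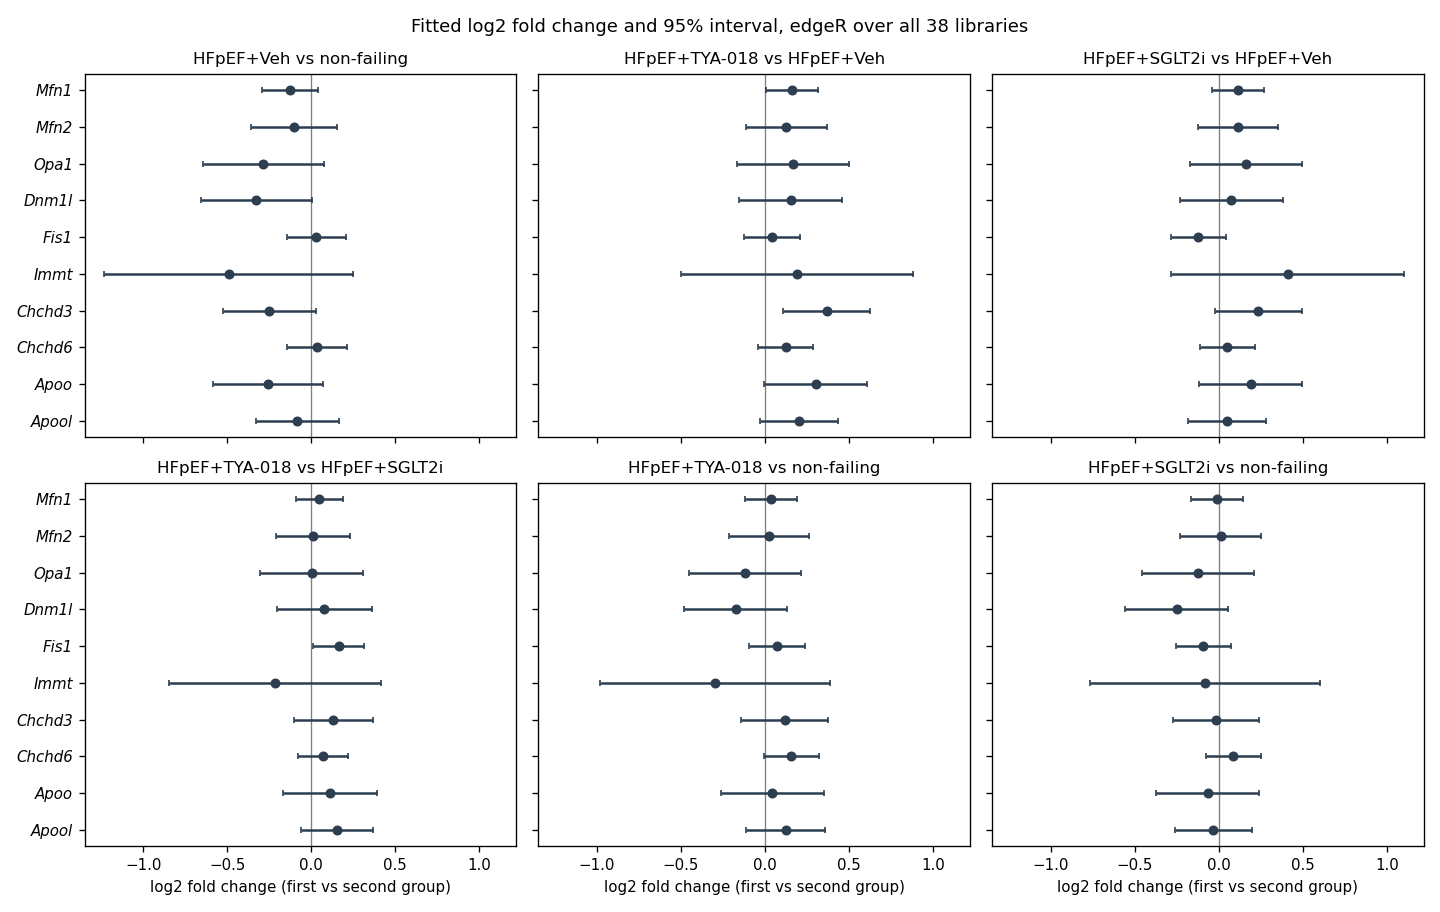
Fitted log2 fold change (x axis) of the 10 genes (y axis) in the 6 comparisons, with 95% intervals from edgeR. Immt has the widest interval throughout, and the intervals of Chchd3 and Mfn1 (HFpEF+TYA-018 against HFpEF+Veh) and of Fis1 (HFpEF+TYA-018 against HFpEF+SGLT2i) exclude 0 before adjustment.

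Most of the variation of these genes lay between mice of the same group. The 4 groups held from 3.80% (Mfn2) to 19.1% (Chchd3) of the variance of log2 CPM of each gene over the 38 libraries, against a median of 12.03% over all 13765 genes. Within groups, the SD of log2 CPM was 0.74 for Immt, higher than for 99.1% of the 7824 genes with a mean log2 CPM of at least 3, whose median SD was 0.21. It was 0.36 for Opa1, 0.35 for Apoo and 0.33 for Dnm1l, and at the other end 0.16 for Mfn1, 0.17 for Chchd6 and 0.18 for Fis1. From the lowest to the highest library, Immt spanned 6.92-fold in TPM, Apoo 3.16-fold, Opa1 3.15-fold and Fis1 1.58-fold.

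The log2 CPM of 8 genes varied together across mice, while Fis1 and Chchd6 stood apart from them. Over the 38 libraries, the Pearson correlation of log2 CPM was 0.95 between Immt and Opa1, 0.88 between Immt and Mfn2, 0.77 between Immt and Chchd3 and 0.79 between Immt and Apoo. The 28 pairs of the 8 genes other than Fis1 and Chchd6, a division made after the values were seen, ran from 0.54 to 0.95 (median 0.77), and within groups from 0.54 to 0.97 (median 0.77). Fis1 ran against them, at -0.73 with Immt, -0.58 with Opa1 and -0.55 with Mfn2, and it correlated at 0.48 with Chchd6. The sign of Fis1 turned with a property of the libraries described further on, their median effective length. Within groups and with that length removed, Fis1 was above 0 with each of the 8 genes (0.19 to 0.33, with 0.24 for Immt, 0.22 for Opa1 and 0.29 for Mfn2), the 17 pairs with Fis1 or Chchd6 ran from 0.06 to 0.73 (median 0.31) and the 28 other pairs from 0.35 to 0.95 (median 0.73). Log2 CPM is scaled by the total of each library and its TMM factor, so the values describe relative levels.

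**Figure D3:**
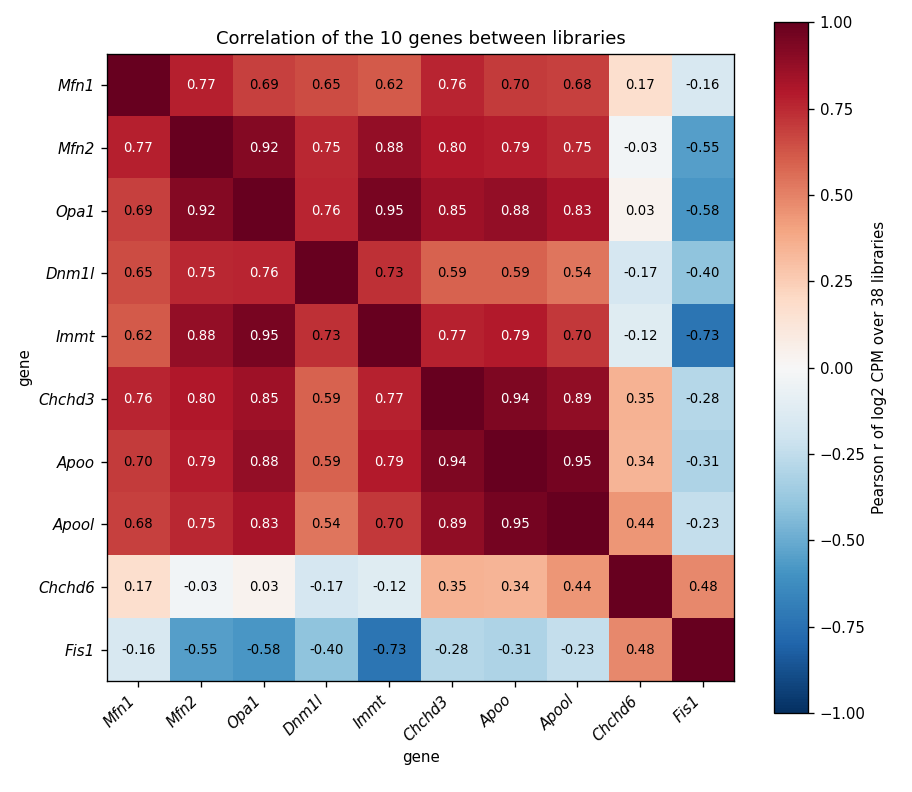
Pearson correlation of log2 CPM over the 38 libraries between each pair of the 10 genes (both axes), coloured from -1 (blue) to 1 (red). The 8 other genes form a block of positive values from 0.54 to 0.95, while Fis1 is negative with each of those 8, down to -0.73 with Immt; within groups and with library length removed, Fis1 is positive with each of them (0.19 to 0.33).

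By TPM, 7 libraries from all 4 groups were picked because each was among the 10 highest for at least 6 of the 10 genes. From 6 to 7 of them were among the 10 highest for Mfn1, Mfn2, Opa1, Immt, Chchd3, Apoo and Apool, 4 for Dnm1l, 1 for Chchd6 and 0 for Fis1. The picking itself raises these counts, so they only describe which genes shared the libraries. By log2 CPM, 5 of the 7 were among the 10 highest for Mfn1, Apoo and Apool, 6 for Mfn2, Opa1 and Chchd3 and 7 for Immt. V2562 (HFpEF+SGLT2i) and V2543 (HFpEF+TYA-018) were among the 10 highest libraries for 8 of the 10 genes, V2504 (non-failing), V2548 (HFpEF+TYA-018), V2563 and V2564 (HFpEF+SGLT2i) for 7 and V2532 (HFpEF+Veh) for 6. V2572 (HFpEF+SGLT2i) was among the 10 lowest for 9 genes, and V2530 (HFpEF+Veh), V2550 (HFpEF+TYA-018) and V2571 (HFpEF+SGLT2i) for 8. For Fis1, also by TPM, the order was turned round in part. V2532, V2562, V2563 and V2564, within the 6 highest for Immt, were within the 5 lowest of 38. Of the other libraries within those 6, V2543 ranked 32 and V2503 ranked 14 for Fis1, counted from the highest. The lowest library for Fis1, V2546, ranked 14 for Immt.

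A property of the libraries moved with the genes. Salmon gives each gene an effective length, the transcript length over which a fragment can start. It averages over the isoforms found and depends on fragment size. The study also ran salmon with its corrections for sequence, GC and positional bias, whose part in these lengths was not tested. The median over all genes differed between libraries from 1785 bases (V2555, HFpEF+TYA-018) to 2355 bases (V2562, HFpEF+SGLT2i). It averaged 2056 ± 82.0 bases in non-failing (n = 8, SD), 2019 ± 133 in HFpEF+Veh (n = 8, SD), 1978 ± 138 in HFpEF+TYA-018 (n = 11, SD) and 2096 ± 116 in HFpEF+SGLT2i (n = 11, SD). TYA-018 libraries were 118 bases shorter than SGLT2i libraries (2-sided permutation test with 100000 resamples, p = 0.0387), and the other 5 comparisons had p from 0.161 to 0.508 (permutation tests, exact where a group had 8 mice). Median length also correlated with depth over the 38 libraries (r = 0.57, rho = 0.51).

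Over the 38 libraries, the log2 CPM of Immt correlated with log2 median effective length at r = 0.84 and rho = 0.85. Without the 2 libraries farthest from the median, V2562 and V2555, r was 0.84, and within groups it was 0.66 in non-failing, 0.99 in HFpEF+Veh, 0.92 in HFpEF+TYA-018 and 0.94 in HFpEF+SGLT2i. Only 55 of the 13765 genes had a higher r. Fis1 correlated at r = -0.92 and rho = -0.83, with r of -0.90 without those 2 libraries and from -0.97 to -0.90 within the groups, and 0.174% of all genes had a larger absolute r. Opa1 had r = 0.69 and rho = 0.73 (r = 0.68 without the 2 libraries), and Mfn2 had r = 0.67 and rho = 0.66 (r = 0.61 without them). The permutation p of r was 1e-05 for each of these 4 genes, the smallest that 100000 resamples can give. Of 10 such relations computed, the other 6 had r from -0.38 (Chchd6) to 0.51 (Dnm1l), against a median absolute r of 0.32 over all genes. Their rho ran from -0.32 (Chchd6) to 0.60 (Apoo), and the permutation p of r from 0.00119 (Dnm1l) to 0.0854 (Mfn1). Within HFpEF+Veh, r was 0.86 for Apoo and 0.82 for Chchd3, and within non-failing 0.40 and 0.19. What sets the length of a library, and its part in the levels of these genes, was not tested.

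**Figure D4:**
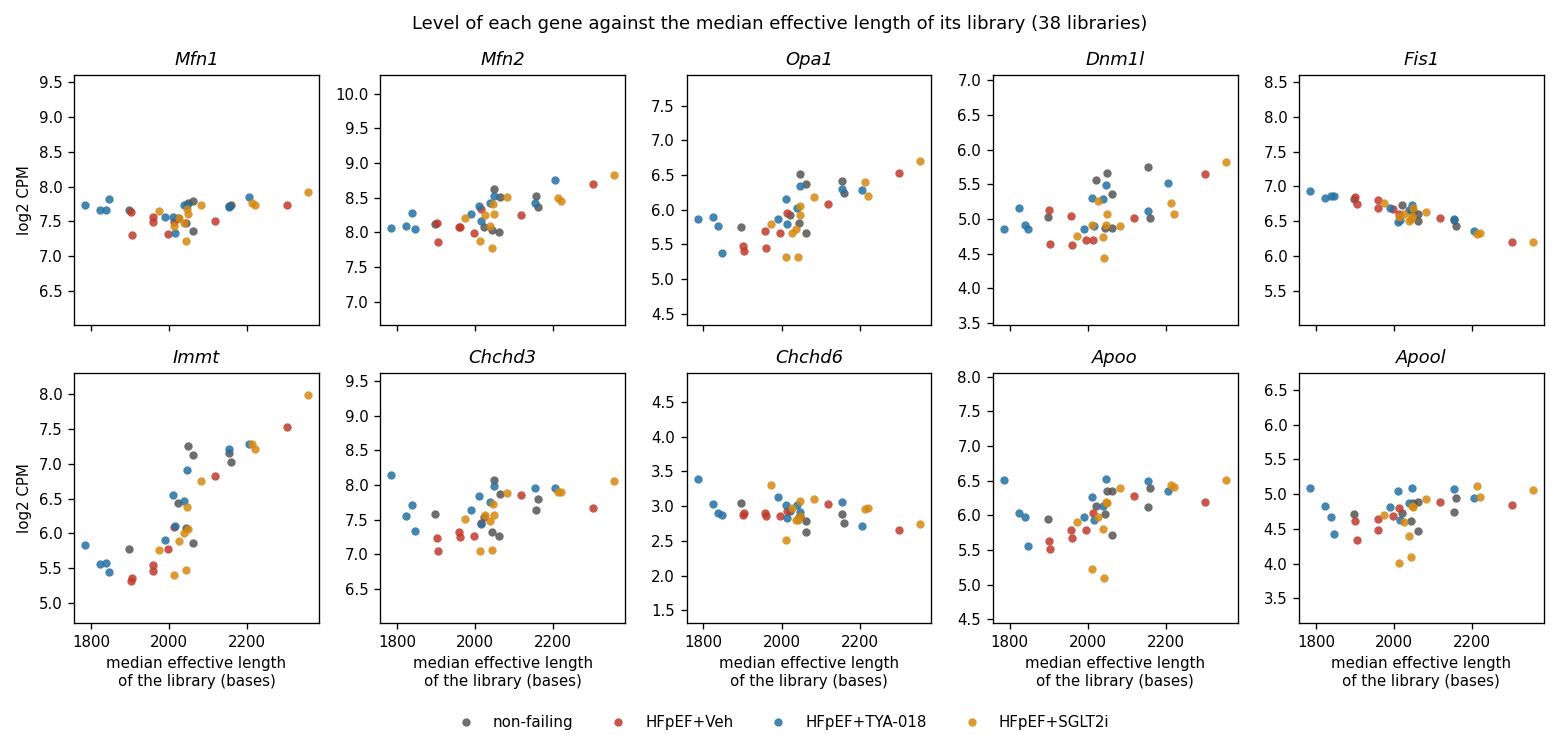
Log2 CPM of each gene (y axis, the same span in every panel) against the median effective length of the library in bases (x axis); each point is 1 mouse, coloured by group. Immt climbs steeply with length in all 4 groups (r = 0.84), and Fis1 falls along a narrow line (r = -0.92). Mfn1 has the r nearest 0 (r = 0.28), from 0.02 in HFpEF+TYA-018 to 0.69 in HFpEF+SGLT2i.

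Because of this, the fit was repeated with log2 median effective length as a covariate, an alternative chosen after the relation was seen. The SE of Immt in HFpEF+TYA-018 against HFpEF+Veh fell from 0.34 to 0.16 and that of Fis1 from 0.08 to 0.04. In that comparison 2 of the 10 genes then passed, against 6.44% of all genes, Chchd3 with a fitted log2 difference of 0.43 (adjusted p 0.0241, SE 0.11) and Immt with 0.53 (adjusted p 0.0397, SE 0.16). Apoo had 0.38 (adjusted p 0.0687), Opa1 0.30 (adjusted p 0.0821) and Mfn1 0.18 (adjusted p 0.0988), while Fis1 was at -0.02 (adjusted p 0.836). Neither Chchd3 nor Immt was called under any other alternative. With 1 library left out and no covariate, the lowest adjusted p of the 10 genes was 0.0638. The fit with the covariate was not repeated with a library left out. Between TYA-018 and empagliflozin, Immt turned from -0.22 to 0.52 (adjusted p 0.0518, SE 0.16), and Fis1 from 0.16 to 0.00. The comparison of the treatments (3.27% of all genes called) and the other 4, HFpEF+Veh against non-failing (4.26%), HFpEF+SGLT2i against HFpEF+Veh (1.14%), HFpEF+TYA-018 against non-failing (9.79%) and HFpEF+SGLT2i against non-failing (12.3%), had 0 members called with the covariate. The covariate is computed from the same libraries and differs between 2 of the groups, so length and treatment cannot be fully told apart in this fit.

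Effective length was also compared gene by gene, since it moves when the mix of isoforms does. It also depends on fragment size, and the part of the bias corrections was not tested, so a difference in length need not be one of isoforms. None of the 10 genes passed an adjusted p under 0.05 over all 13765 genes in any comparison (limma on log2 effective length, each library centred on its median, an alternative chosen after the data were seen), with from 0 to 4 at an unadjusted p under 0.05. Of all genes, 1.46% passed for HFpEF+TYA-018 against HFpEF+Veh, 2.8% between the treatments, 0.00726% (1 gene) for HFpEF+TYA-018 against non-failing and 0% in the other 3. Without centring the calls were 11% of all genes (1520) between the treatments, against 385 with it, and 0% in the other 5, with 0 against 201 for HFpEF+TYA-018 against HFpEF+Veh. None of the 10 genes passed on that scale either (lowest adjusted p 0.0659). The lowest adjusted p were those of Fis1, 710 bases with TYA-018 against 678 with empagliflozin (geometric means after centring, adjusted p 0.0545), and of Chchd6, 972 bases with TYA-018 against 934 with vehicle (adjusted p 0.0548). Uncentred, 11 of 60 permutation tests had an unadjusted p under 0.05, the lowest for Apoo in HFpEF+SGLT2i against non-failing (706 against 692 bases, exact p = 0.0124). After centring, Apoo was at 688 against 686 bases in that comparison (permutation p = 0.908). All 11 lay in the direction of the group means of library length, shorter with TYA-018 or longer with empagliflozin. The share of all genes at an unadjusted p under 0.05 was not computed for length, so counts at that level lack a background. Without V2523, 5 of the 30 tests that involve vehicle had a p under 0.05. Chchd6 was at 915 bases in HFpEF+Veh against 974 with empagliflozin (exact p = 0.00518) and 963 in non-failing hearts (exact p = 0.0312), and Chchd3 at 1352 bases against 1411 with empagliflozin (exact p = 0.00666). These lengths were not centred. After centring, with V2523 included, empagliflozin against vehicle had a log2 difference of 0.023 for Chchd6 (permutation p = 0.228) and 0.0034 for Chchd3 (permutation p = 0.872). Chchd6 in vehicle against non-failing had -0.032 (permutation p = 0.0915).

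For each gene, the genes outside the set with the most similar profile over the 38 libraries were looked up among 7805 genes with a mean log2 CPM of at least 3. Opa1 was nearest to Grsf1, an RNA-binding protein of mitochondrial RNA granules (r = 0.98), Prkaa2, the catalytic subunit of the AMP-activated kinase (r = 0.97), and Dnaja3, a mitochondrial chaperone (r = 0.96). Immt was nearest to Ptcd3, a protein of the mitochondrial ribosome (r = 0.97), Prkaa2 (r = 0.97) and Ppp2r5c (r = 0.96), and Mfn2 to Fsd2 (r = 0.96), Gnpat (r = 0.96) and Dynll2 (r = 0.95). Fis1 was nearest to small subunits of the respiratory chain, Ndufa2 (r = 0.98), Uqcr11 (r = 0.97) and Ndufa13 (r = 0.97). Chchd3 was nearest to Bzw2 (r = 0.97), the import channel gene Timm23 (r = 0.96) and the ferredoxin Fdx1 (r = 0.95). Apoo and Apool shared Rdh14 (r = 0.97 and 0.93) and the ATP synthase gene Atp5f1 (r = 0.97 and 0.94), with Emc2 for Apoo (r = 0.96) and the porin Vdac3 for Apool (r = 0.94). Values were lower for Mfn1 (Usp13 and Acss1, r = 0.86 and 0.85), Chchd6 (Aamdc, Cox14 and Emg1, r from 0.80 to 0.81) and Dnm1l (5730455P16Rik, Esrrg and Fsd2, r from 0.79 to 0.80). Every one of these values includes the variation with library length described above.

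The wider pathway was described by a list of 57 partners and regulators of fusion, fission, cristae and cardiolipin, of which 55 were found and 52 tested. Of these, 4 were called for HFpEF+TYA-018 against non-failing, all higher, 3 for HFpEF+SGLT2i against non-failing, 1 for HFpEF+TYA-018 against HFpEF+Veh, and 0 in the other 3 comparisons, where 5, 3 and 6 had an unadjusted p under 0.05 (HFpEF+Veh against non-failing, HFpEF+SGLT2i against HFpEF+Veh, and HFpEF+TYA-018 against HFpEF+SGLT2i), against 15.9%, 10.05% and 13.2% of all genes. In those 3 DESeq2 called 0, and limma on log2(TPM + 1) called 1, 0 and 0, the 1 being Phb2. Of all genes 7.39%, 6.45% and 1.93% were called in the 3 comparisons with calls, and the counts of partners lay near those shares.

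Prohibitins form the ring of the inner membrane that steadies the protein made from Opa1. Phb had a lowest, median and highest TPM of 65.4, 81.8 and 93.4 in HFpEF+Veh and 80.8, 90.9 and 111 in HFpEF+TYA-018, with the upper part of the vehicle range inside the treated one. It was higher with TYA-018 by 0.32 on the log2 scale (adjusted p 0.0293, SE 0.08). The call was lost without any 1 of V2529, V2530, V2532, V2552 or V2555 (adjusted p up to 0.0655), without V2523 and V2532 together, and with library size alone, the length offset or limma on TPM (adjusted p up to 0.192). Phb2 had 55.4, 71.6 and 84.4 TPM in non-failing hearts, 74.0, 81.1 and 104 in HFpEF+Veh, 74.5, 84.8 and 104 in HFpEF+TYA-018 and 70.0, 89.2 and 106 in HFpEF+SGLT2i. Both treated groups overlapped the controls in part, and Phb2 was higher than in non-failing hearts by 0.35 with TYA-018 (adjusted p 0.00181, SE 0.07) and by 0.28 with empagliflozin (adjusted p 0.0140, SE 0.07), calls that held in every alternative. Mean TPM was 84.1 in HFpEF+Veh, 87.2 with TYA-018 and 87.4 with empagliflozin, against 70.6 in non-failing hearts. HFpEF+Veh had 0.13 against non-failing (adjusted p 0.426), and TYA-018 and empagliflozin had 0.22 and 0.15 against HFpEF+Veh (adjusted p 0.0982 and 0.485), so Phb2 was not called against vehicle.

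Trak1, an adaptor that links mitochondria to motor proteins, had 6.18, 8.63 and 9.62 TPM in non-failing hearts, 8.14, 10.005 and 11.2 in HFpEF+TYA-018 and 8.49, 9.85 and 12.9 in HFpEF+SGLT2i. It was higher by 0.30 in both (SE 0.08, adjusted p 0.0112 and 0.0131), although with library size alone and with limma on TPM the call for TYA-018 was lost (adjusted p up to 0.0918). HFpEF+Veh, at 7.31, 10.3 and 11.8 TPM, overlapped all 3 other groups, with 0.19 against non-failing (adjusted p 0.228). Against HFpEF+Veh, the fitted values on the CPM scale were 0.11 with TYA-018 and 0.10 with empagliflozin (adjusted p 0.472 and 0.682). Mean TPM was 9.95 with TYA-018 and 10.24 with empagliflozin against 10.05 with vehicle, so TYA-018 lay below vehicle on that scale. Fam73a encodes mitoguardin 1, an outer membrane protein that promotes fusion. It had 2.09, 2.64 and 2.94 TPM in non-failing hearts, 1.68, 2.14 and 3.29 in HFpEF+Veh, 1.83, 2.16 and 2.44 in HFpEF+TYA-018 and 1.47, 2.05 and 2.38 in HFpEF+SGLT2i. All 11 libraries of each treated group lay under the control median. With empagliflozin, Fam73a was lower than in non-failing hearts by 0.34 on the log2 scale (log2 fold change -0.34, SE 0.08, adjusted p 0.00980), and with TYA-018 it was not called. In HFpEF+Veh against non-failing, Fam73a was called only when V2523 was left out (-0.32, adjusted p 0.0214) or V2523 with V2532 (-0.39, adjusted p 0.00314). Pgs1, an enzyme of cardiolipin synthesis, and Tmem11, an inner membrane partner of MICOS, were higher with TYA-018 than in non-failing hearts by 0.17 and 0.22 (SE 0.05 and 0.07, adjusted p 0.0155 and 0.0447). Pgs1 had 5.88 to 7.79 TPM with TYA-018, 6.36 to 7.91 with vehicle and 5.14 to 6.75 in controls. Tmem11 averaged 15.9 TPM with TYA-018, 16.1 TPM with vehicle and 14.4 TPM in controls. Against vehicle, the fitted values with TYA-018 on the CPM scale were 0.07 for Pgs1 and 0.15 for Tmem11 (adjusted p 0.427 and 0.246). Mean TPM was lower with TYA-018 than with vehicle for both, at 6.81 against 7.10 for Pgs1, so the direction turned with the scale. The call of Pgs1 was lost with library size alone, with only the 2 groups fitted and with limma on TPM. That of Tmem11, which the naming rule did not cover and which was named after its value was seen, was lost in 7 of 8 alternatives. It was also lost without any 1 of V2503, V2507, V2509, V2510, V2546, V2547, V2551, V2552, V2555 or V2559 (adjusted p up to 0.113).

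By role, partners of the cristae had a median log2 fold change of 0.15 for TYA-018 against vehicle, with 13 of 14 values above 0 and 6 at an unadjusted p under 0.05 but 0 called, where 48.2% of all genes were above 0, 17.5% had an unadjusted p under 0.05 and 1.93% were called. Partners of fusion and fission had a median of 0.10 (23 of 28 above 0, 1 called) and cardiolipin genes 0.08 (9 of 10 above 0, 0 called). With the length covariate, 11 of the 52 were called in that comparison, all higher, against 1 without it, and 6.44% of all genes were called with it. In HFpEF+Veh against non-failing the medians were -0.07, -0.05 and 0.03.

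**Figure D5:**
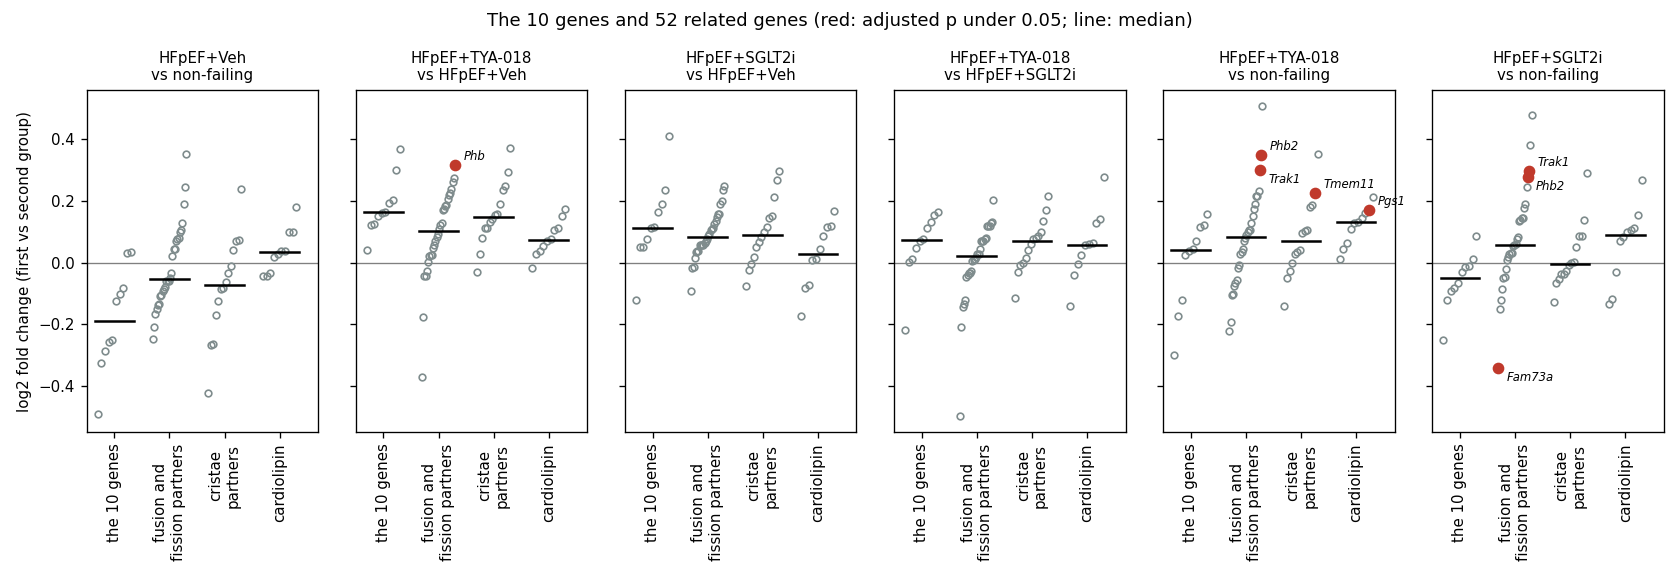
Log2 fold change (y axis) of the 10 genes and of the 52 tested partners by role (x axis) in the 6 comparisons; each circle is a gene, red where the adjusted p is under 0.05, and the line is the median. Only 6 different partners are red in any comparison, and 0 of the 10 genes is; the directions of Mfn2, Fis1 and Chchd6 for HFpEF+TYA-018 against HFpEF+Veh turn with library size alone.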

How the data were processed

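RNA-seq of 38 left ventricles was analysed. The authors trimmed reads with fastp, quantified transcripts with Salmon 1.6.0 and summed them to genes with tximport, per the methods, and deposited expected counts (estimated by Salmon, which need not be whole), TPM (scaled by the authors to a total of 1000000) and effective lengths in bases. The submitters' processing notes name the human build hg38 for these mouse samples, while the methods name the mouse assembly GRCm38. Labels and methods also differ on read length and pairing. Positions come from GENCODE M21 on GRCm38.

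Counts were rounded and tested with edgeR 4.0.16 (filterByExpr, TMM, glmQLFit, all 4 groups in 1 fit, two-sided, Benjamini-Hochberg over 13765 genes, adjusted p under 0.05), with DESeq2 1.42.0 and limma 3.58.1 (pseudocount 1) as alternatives in R 4.3.3. Log2 CPM used the TMM factors and a prior count of 2. Scripts were tested on simulated data. The gene set and lists were chosen with earlier results of these data known. Named genes are the 10 genes, called partners (at most 3 higher and 3 lower per comparison) and, per gene, the 3 closest profiles, of which 1 is not reported here. Of 57 partners, Marchf5 and Ptpmt1 matched no row. Effective lengths were tested by permutation, with adjusted p taken from limma over all genes. Mice are taken as the replicates, since each label names 1 mouse. Depth per library limits precision to what the SE shows.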

Additional observations from a re-analysis of the deposited data

Results flagged for a closer look

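Dnm1l reached 15.9 TPM in library V2532 of HFpEF+Veh, set apart from the next library at 11.1 TPM by more than the spread of the other 7 allows (gap over range 0.562, above the critical value of Dixon's test for 8 samples). The summed TPM of 5 hepatocyte markers was 783 in V2523 of the same group (gap over range 0.977), and that of 4 fast skeletal muscle markers was 36.1 in V2532 (gap over range 0.967). Of 26 groups of values tested in this way, all from non-failing or HFpEF+Veh, 3 stood out. Chance alone would set apart about 1 in 20 of independent groups. These 26 are not independent, since most of the genes vary together, and the lists were chosen with earlier results known. No conclusion is drawn from the count of 3. Libraries with TYA-018 or empagliflozin were not tested in this way.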

How the results depend on the processing

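None of the 10 genes was called under RLE scaling, library size alone, no filter, the length offset, only the 2 groups, limma on TPM, DESeq2, or without any 1 library or V2523 and V2532 together. The exception was the covariate of library median effective length, chosen after seeing the data, with 2 called for HFpEF+TYA-018 against HFpEF+Veh. Of 1650 fold changes under alternatives 85 reversed, 81 of them where the reported value was 0.13 or less in size. The cause was not tested. Over all genes, the 266 calls for HFpEF+TYA-018 against HFpEF+Veh (115 higher) became 1096 with library size alone (25 higher), 618 with no filter, 525 with DESeq2, 886 with the covariate, 58 with only the 2 groups, 42 with limma and 90 without V2523 and V2532. The 117 for HFpEF+SGLT2i against HFpEF+Veh became 457 with no filter, 227 with DESeq2, 20 without both libraries, 3 with only the 2 groups and 0 with limma. Against non-failing, the 1017 of HFpEF+TYA-018 became 597 with limma, the 888 of HFpEF+SGLT2i became 527 with limma and 1698 with the covariate, and the 433 of HFpEF+Veh became 916 without both libraries. Library size alone also moved the higher calls from 243 of 433 to 379 of 477 for HFpEF+Veh and from 551 of 1017 to 258 of 904 for HFpEF+TYA-018 against non-failing, and from 18 of 117 to 4 of 149 for HFpEF+SGLT2i against HFpEF+Veh. The 0 between the treatments became 193 with DESeq2 and 450 with the covariate. With 1 library left out, all-gene calls ranged from 2 (without V2523; 83 or more without any other) to 175 for HFpEF+SGLT2i against HFpEF+Veh, from 167 (without V2530; 177 without V2547) to 393 for HFpEF+TYA-018 against HFpEF+Veh, and from 0 to 17 between the treatments (17 without V2570, 9 without V2565, 1 without V2548, V2555 or V2559). Against non-failing they ranged from 289 to 620 for HFpEF+Veh, 736 to 1154 for HFpEF+TYA-018 and 701 to 988 for HFpEF+SGLT2i. No paired analysis was possible because mouse numbers are not shared between groups.

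Called partners fell from 1 to 0 for HFpEF+TYA-018 against HFpEF+Veh with library size alone, the length offset, limma on log2(TPM + 1), or without V2523 and V2532 together, and ranged from 0 to 1 with 1 library left out; the covariate gave 11. For HFpEF+TYA-018 against non-failing, library size alone and limma gave 1 and the covariate 9, against 4. The covariate gave 3 between the treatments, against 0. For HFpEF+Veh against non-failing, limma and the fit without both libraries gave 1, against 0, and the range with 1 library left out was 0 to 1 (1 without V2523).

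Reversed log2 fold changes with library size alone were, for TYA-018 against vehicle, Mfn2 -2.3e-05, Fis1 -0.089 and Chchd6 -0.0099. They were Chchd6 -0.027 and Apool -0.032 for empagliflozin against vehicle, Mfn1 -0.00097, Mfn2 -0.034 and Opa1 -0.045 for TYA-018 against empagliflozin and Mfn1 -0.023, Mfn2 -0.034 and Apoo -0.0097 for TYA-018 against non-failing. No filter gave Opa1 -0.0030 for TYA-018 against empagliflozin. The length offset gave Opa1 -0.051 in that comparison, Apoo -0.018 for TYA-018 against non-failing and Mfn1 0.0097 for empagliflozin against non-failing.

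The covariate gave Fis1 -0.029 for vehicle against non-failing, Fis1 -0.015 for TYA-018 against vehicle and Opa1 0.069, Fis1 -0.044 and Immt 0.079 for TYA-018 against non-failing. It gave Mfn2 -0.0069, Opa1 -0.0074, Dnm1l -0.056 and Apool -0.034 for empagliflozin against vehicle, Mfn2 -0.060 for empagliflozin against non-failing and Immt 0.52 for TYA-018 against empagliflozin. Limma gave Fis1 -0.11 and Chchd6 -0.055 for TYA-018 against vehicle, Chchd6 -0.042 and Apool -0.024 for empagliflozin against vehicle and Mfn2 -0.037, Opa1 -0.074 and Chchd6 -0.013 for TYA-018 against empagliflozin. Against non-failing it gave Mfn2 -0.0096 and Apoo -0.061 for TYA-018 and Mfn1 0.036 for empagliflozin. Without V2523 and V2532, TYA-018 against vehicle gave Fis1 -0.036.

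With 1 library left out, values that changed sign ranged, for TYA-018 against non-failing, from -0.026 to 0.076 (Mfn2) and from -0.0065 to 0.092 (Apoo). For empagliflozin against non-failing they ranged from -0.047 to 0.022 (Mfn1), from -0.051 to 0.064 (Mfn2), from -0.33 to 0.021 (Immt), from -0.064 to 0.054 (Chchd3), from -0.12 to 0.0026 (Apoo) and from -0.082 to 0.020 (Apool), with Immt above 0 only without V2501. Against vehicle they ranged from -0.014 to 0.070 (Fis1) with TYA-018, below 0 without V2532, and from -0.030 to 0.21 (Dnm1l) with empagliflozin, below 0 without V2562. For TYA-018 against empagliflozin they ranged from -0.038 to 0.076 (Mfn2), from -0.051 to 0.097 (Opa1) and from -0.34 to 0.032 (Immt), with Immt above 0 only without V2562.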
